A study of Danio rerio with 6 samples.

Results

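Transcripts of the oxidative phosphorylation machinery were compared between livers of scd knock-out zebrafish and of WT zebrafish. The genes were taken by symbol. A gene was included if its symbol began with mt-nd, mt-co, mt-atp or mt-cyb, with nduf, uqcr or atp5, with cox4 to cox8, or with sdha to sdhd. This gave 115 of the 30954 named genes in the count table. Of these, 13 are encoded in mitochondrial DNA and 91 are nuclear genes taken as subunits. The other 11 are nuclear assembly factors of complexes I and II, whose symbols share the same beginnings. The ATP synthase inhibitory factors atp5if1a and atp5if1b were counted with complex V although they are regulators. The complex III subunit cyc1 was not taken by its symbol.

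The series held 3 liver RNA libraries labelled as mutants made by CRISPR-Cas9 knockout of scd and 3 labelled as WT fish, all kept in water at 28 °C. The gene scd encodes stearoyl-CoA desaturase, which makes monounsaturated fatty acyl-CoA from saturated precursors. The allele, sex and age of the fish, and whether a library came from 1 fish or several, were not given in the sources used here. The scd transcript itself had 693, 110.5 and 56.8 CPM in mutant replicates 1 to 3, against 30.4, 18.1 and 431 CPM in WT replicates 1 to 3. Mutant replicate 1 was the highest library and the WT libraries held the 2 lowest, so the level of the message does not set apart the libraries labelled mutant. Without the allele, a transcript level says nothing of the protein, and mutant and WT below mean libraries so labelled. The p-values reflect spread between these samples alone, and that spread may be technical.

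Oxidative phosphorylation takes place at the inner mitochondrial membrane. Electrons enter from NADH at complex I and from succinate at complex II, pass through complex III and cytochrome c to oxygen at complex IV, and the proton gradient built on the way drives ATP synthesis at complex V. Mitochondrial DNA encodes a few core subunits of complexes I, III, IV and V and none of complex II. These genes are transcribed inside the organelle as long precursors that are cut into single messages, whereas all other subunits are transcribed in the nucleus, made in the cytosol and imported. Each of these complexes therefore needs both genomes, apart from complex II. Mammalian hepatocytes are rich in mitochondria and use them for fatty acid oxidation, urea synthesis and gluconeogenesis.

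Total counts lay between 22736924 and 26021730 per library. Beyond genotype, the libraries differed in yolk protein transcripts and in other cell types. Vitellogenin, the yolk precursor secreted by the liver of egg-laying females, took 57.3% and 57.3% of named counts in mutant replicates 1 and 2 but 0.0434% in mutant replicate 3, and 44.1% to 51.0% in WT. Oocyte and ovary markers, of which 17 of 18 were in the table, had a summed level of 389 CPM in mutant replicate 1, of 236 CPM in WT replicate 1 and of 295 CPM in WT replicate 2, and of 0.271 to 2.98 CPM in the other libraries. The oocyte genes gdf9, figla and nanos3 had 0 counts in mutant replicates 2 and 3 and WT replicate 3. Erythrocyte markers, 9 of 11 in the table, reached 2273 CPM in mutant replicate 3, against 173 to 350.3 CPM elsewhere. Exocrine pancreas markers summed to 673, 496 and 758 CPM in mutant replicates 1 to 3, against 209, 2795 and 2476 CPM in WT replicates 1 to 3. Hepatocyte markers, 12 of 14 in the table, summed to between 42590 and 97620 CPM. Levels are given as CPM, which relate a gene's counts to library size after TMM scaling. The TMM factor of mutant replicate 3 was 2.97, and those of the other libraries lay between 0.632 and 1.07. In bulk samples, fewer cells of a type and less RNA per cell cannot be told apart.

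All 13 mitochondrially encoded transcripts had a lower mean CPM in mutant livers. For all 7 that encode complex I subunits, each mutant library stood below each WT library. The log2 fold changes, mutant over WT, ran from -1.23 for mt-nd6 to -0.49 for mt-cyb, with a median of -0.98, where the median of all 12889 genes tested was 0.04. Of all genes tested, 11.8% had a log2 fold change below that -0.98, 8.07% one below that of mt-nd6 and 25.7% one below that of mt-cyb. No oxidative phosphorylation gene was called by edgeR's quasi-likelihood test at an adjusted p under 0.05, a threshold that 0.241% of all genes passed. At an unadjusted p under 0.05, 6 of the 13 were lower, against 8.29% of all genes. That number was 8 without mutant replicate 3, beside 8.59% of all genes in that fit. Without mutant replicate 1 it was 13, beside 13.2%, and without mutant replicate 2 it was 3, beside 6.12%. It was 2 without any one WT library, beside 5.4% to 6.43%, and 0 with total counts as library sizes, beside 1.85%. A replicate block gave 2, beside 8.32%, and a covariate of ovary markers 4, beside 8.77%. The other edgeR settings gave 5 to 8, beside 6.03% to 8.97%. Mutant and WT values were fully separated for 11 of the 13, all lower in mutant, against 12.8% of all genes. DESeq2's Wald test on the same counts called 7 of them lower, at adjusted p from 0.000422 to 0.0267, against 4.47% of all genes. By limma-voom 0 were called, where it called 18 of the 12889 genes as lower. The 7 called by DESeq2 were mt-nd1, mt-nd2, mt-nd4, mt-nd4l, mt-nd5, mt-nd6 and mt-atp6. The 13 genes are transcribed as long shared precursors and were measured in the same libraries. Their values are therefore not independent, and the numbers of genes given here are not numbers of replicates.

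The complex I genes encode membrane-arm subunits, the part that pumps protons. The level of mt-nd6 was 72.2, 81.7 and 87.2 CPM in mutant replicates 1 to 3, against 232, 165 and 168 CPM in WT replicates 1 to 3. It averaged 80.3 ± 7.57 CPM in mutant and 188 ± 37.5 CPM in WT livers (SD, n = 3 each), with a fold change of -1.23 ± 0.31 on the log2 scale (± SE, edgeR adjusted p = 0.119). In each mutant library it was lower than in any WT library. The level of mt-nd2 was 565, 565 and 471 CPM in mutant replicates 1 to 3, against 1272, 1061 and 1169 CPM in WT replicates 1 to 3. The highest mutant value lay well below the lowest WT value, and the log2 fold change was -1.13 ± 0.39 (adjusted p = 0.19). The short mt-nd4l, whose frame overlaps that of mt-nd4, stood at 174, 125 and 137 CPM in mutant replicates 1 to 3, against 389.9, 308 and 295 CPM in WT replicates 1 to 3, with the groups apart and a log2 fold change of -1.19 ± 0.34 (adjusted p = 0.143). Its neighbour mt-nd4 stood at 729, 458 and 472 CPM in mutant replicates 1 to 3, against 1469, 1130.0 and 1110.0 CPM in WT replicates 1 to 3 (log2 fold change -1.16 ± 0.42, adjusted p = 0.211). The values of mt-nd1 were 788, 729 and 529 CPM in mutant replicates 1 to 3, against 1456, 1174 and 1414 CPM in WT replicates 1 to 3. Both mt-nd3 and mt-nd5 were also separated between the groups, with log2 fold changes of -0.98 and -0.89. Among the 13, mt-nd6 alone lies on the light strand. Its log2 ratio to the sum of the others was -8.095, -7.33 and -6.97 in mutant replicates 1 to 3, against -6.97, -7.13 and -7.31 in WT replicates 1 to 3, and the groups overlapped. Reads across overlapping frames, reads from the strand opposite mt-nd6 and reads shared with nuclear copies of mitochondrial DNA depend on counting settings that were not given in the sources used here.

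The 3 catalytic subunits of complex IV had a median log2 fold change of -0.90, beside -1.13 for the 7 of complex I. The transcript of mt-co1, which carries the oxygen-reducing centre, was at 6528, 4953 and 3959 CPM in mutant replicates 1 to 3, against 9235, 7116 and 9382 CPM in WT replicates 1 to 3. Each mutant library was below each WT library (log2 fold change -0.74 ± 0.56, adjusted p = 0.502). For mt-co2, which takes electrons from cytochrome c, the levels were 3508, 2112 and 1581 CPM in mutant replicates 1 to 3, against 5028, 4047 and 4879 CPM in WT replicates 1 to 3 (log2 fold change -0.95 ± 0.54, adjusted p = 0.377). For mt-co3 they were 3276, 1517 and 1303 CPM in mutant replicates 1 to 3, against 4226, 3517 and 3657 CPM in WT replicates 1 to 3. In both genes, mutant replicate 1 came close to the lowest WT library.

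Complex V has a pair of mitochondrially encoded subunits. The proton-channel gene mt-atp6 was at 1157, 804 and 767 CPM in mutant replicates 1 to 3, against 2070.0, 1602 and 1845 CPM in WT replicates 1 to 3, without overlap (log2 fold change -1.02 ± 0.44, adjusted p = 0.263). Its small partner mt-atp8 was at 36.5, 23.5 and 20.5 CPM in mutant replicates 1 to 3, against 45.3, 36.5 and 44.4 CPM in WT replicates 1 to 3, and mutant replicate 1 reached the level of WT replicate 2. The cytochrome b gene mt-cyb, the one mitochondrially encoded subunit of complex III, had the log2 fold change nearest to 0 of the 13. Its levels were 2226, 1240.0 and 1100.0 CPM in mutant replicates 1 to 3, against 2457, 2062 and 1881 CPM in WT replicates 1 to 3, so that mutant replicate 1 lay within the WT range (log2 fold change -0.49 ± 0.49, adjusted p = 0.616).

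**Figure D1:**
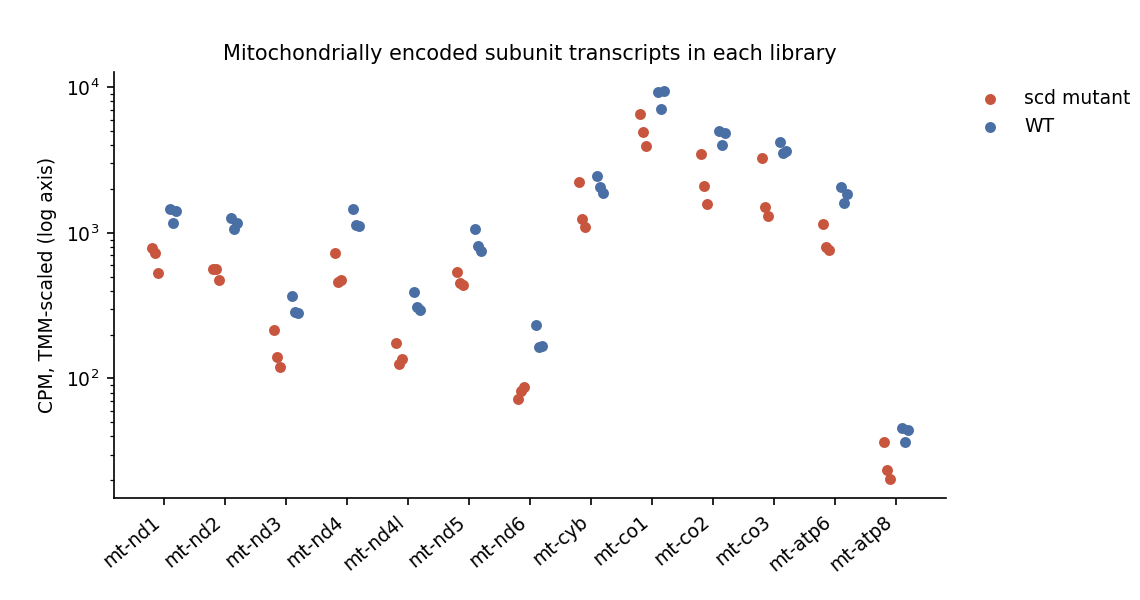
Level of each mitochondrially encoded transcript, in TMM-scaled CPM on a log axis, with 1 point per library (3 scd mutant left, 3 WT right). The groups are apart for 11 of the 13 genes, and overlap for mt-cyb and mt-atp8.

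Shares within the mitochondrial pool need no scaling between libraries. The share of mt-cyb in all counts of the 13 genes was 11.2%, 9.39% and 10.02% in mutant replicates 1 to 3, against 8.38%, 8.84% and 6.999% in WT replicates 1 to 3. It averaged 10.2% ± 0.936 in mutant and 8.07% ± 0.959 in WT livers (SD, n = 3 each), and the groups did not overlap. That of mt-atp8 was also higher in each mutant library, at 0.184%, 0.178% and 0.187% in mutant replicates 1 to 3, against 0.155%, 0.157% and 0.165% in WT replicates 1 to 3. The share of mt-nd2 was lower in each mutant library, at 2.85%, 4.28% and 4.29% in mutant replicates 1 to 3, against 4.34%, 4.55% and 4.35% in WT replicates 1 to 3, although mutant replicates 2 and 3 came close to WT replicate 1. The shares of the other 10 genes overlapped between the groups. The largest of them, mt-co1, made up 32.9%, 37.5% and 36.1% in mutant replicates 1 to 3, against 31.5%, 30.5% and 34.9% in WT replicates 1 to 3. Wilson 95% intervals of these shares reach at most 0.168 percentage points to either side and cover counting error only. How often shares within other gene sets separate the groups was not computed.

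Nuclear subunits had log2 fold changes centred near 0. Of the 91, 83 passed the filter on low counts, and 75 of these had a log2 fold change between -0.5 and 0.5, against 1 of the 13 mitochondrially encoded genes. Their median was -0.04, with 40 positive and 43 negative values. Relative to the median of all genes it was -0.08, and the sign depended on single libraries, at -0.28 with mutant replicate 1 left out and 0.09 with mutant replicate 3 left out. Mutant and WT values were fully separated for 3 higher and 2 lower members, where 15.1% of all genes were separated and higher and 12.8% separated and lower. At an unadjusted p under 0.05, edgeR had 0 higher, against 10.8% of all genes, and 1 lower, cox6b1. DESeq2 and limma-voom called 0 nuclear members, where they called 1085 and 28 of all genes. Across the 6 libraries, the SD of log2 CPM was below the 0.615 median of all genes for 75 of the 83, and for 6 of the 13 mitochondrially encoded genes. This SD takes in the difference between the groups as well as the spread within them. Mutant replicate 1 was the highest library for 60 of the 83 and mutant replicate 3 the lowest for 52.

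**Figure D2:**
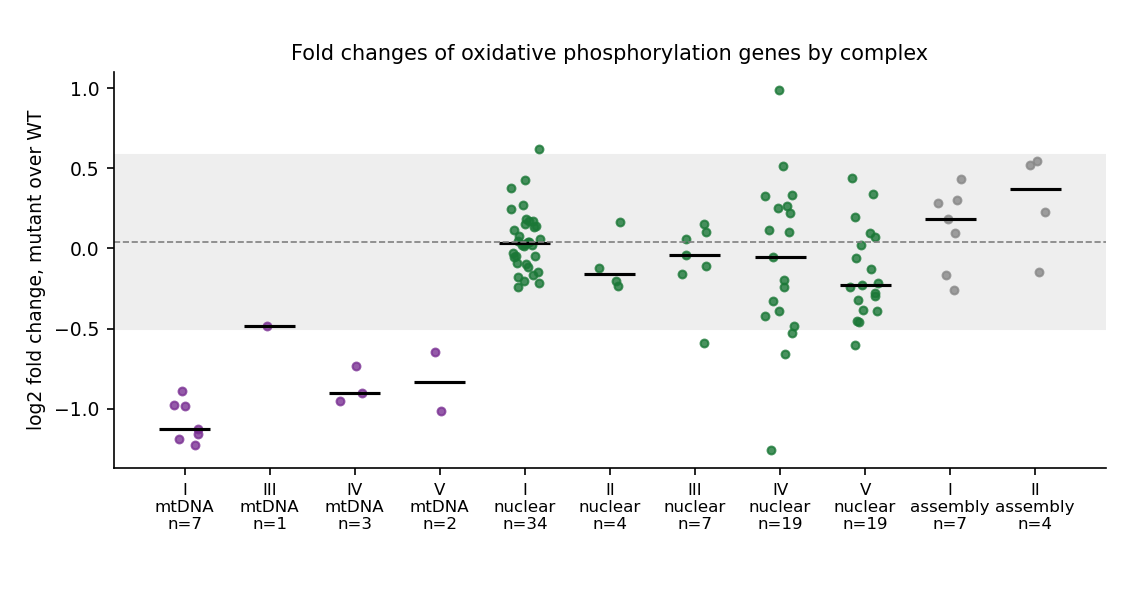
Log2 fold change, mutant over WT, of each gene that passed the filter, by complex and by where it is encoded; n is the number of genes, black bars are medians, the dashed line is the median of all genes (0.04) and the grey band their middle quartiles (-0.51 to 0.59). The mitochondrially encoded genes lie between -1.23 and -0.49, and nuclear subunits centre near 0.

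Within a library, the ratio of mitochondrially encoded to nuclear subunit counts is free of scaling. The number of mitochondrial counts per nuclear subunit count was 3.01, 3.002 and 2.94 in mutant replicates 1 to 3, against 5.41, 3.87 and 4.83 in WT replicates 1 to 3. The 3 mutant libraries lay close together, and all lay below the lowest WT library. Whether the ratio depends on the vitellogenin share of a library was not tested. On the log2 scale the ratio averaged 1.58 ± 0.02 in mutant and 2.22 ± 0.25 in WT livers (SD, n = 3 each), a difference of -0.64, or 0.641-fold. The pooled SD between libraries of a group was 0.17. Because the genes were chosen with results known, no p is given for this ratio, and 3 libraries against 3 could not give an exact permutation p under 0.1.

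The ratio was also taken within each complex. For complex I the log2 ratio was 1.39, 1.55 and 1.55 in mutant replicates 1 to 3, against 2.77, 2.38 and 2.47 in WT replicates 1 to 3, a difference of -1.04. For complex III it was 1.97, 1.59 and 1.82 in mutant replicates 1 to 3, against 2.37, 2.02 and 2.07 in WT replicates 1 to 3, a difference of -0.36, with mutant replicate 1 just below WT replicate 2. For complex IV it was 3.18, 3.11 and 2.99 in mutant replicates 1 to 3, against 3.93, 3.44 and 3.73 in WT replicates 1 to 3, a difference of -0.61. For complex V it was -1.41, -1.26 and -1.07 in mutant replicates 1 to 3, against -0.32, -0.88 and -0.496 in WT replicates 1 to 3, a difference of -0.68. In each complex the mutant libraries lay below the WT ones. They lay less close together than for all complexes summed. Their SD was 0.095, 0.19, 0.094 and 0.17 for complexes I, III, IV and V, beside 0.02 for the sum. Counting error on these ratios reached at most 0.0353 to either side at 95% confidence.

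**Figure D3:**
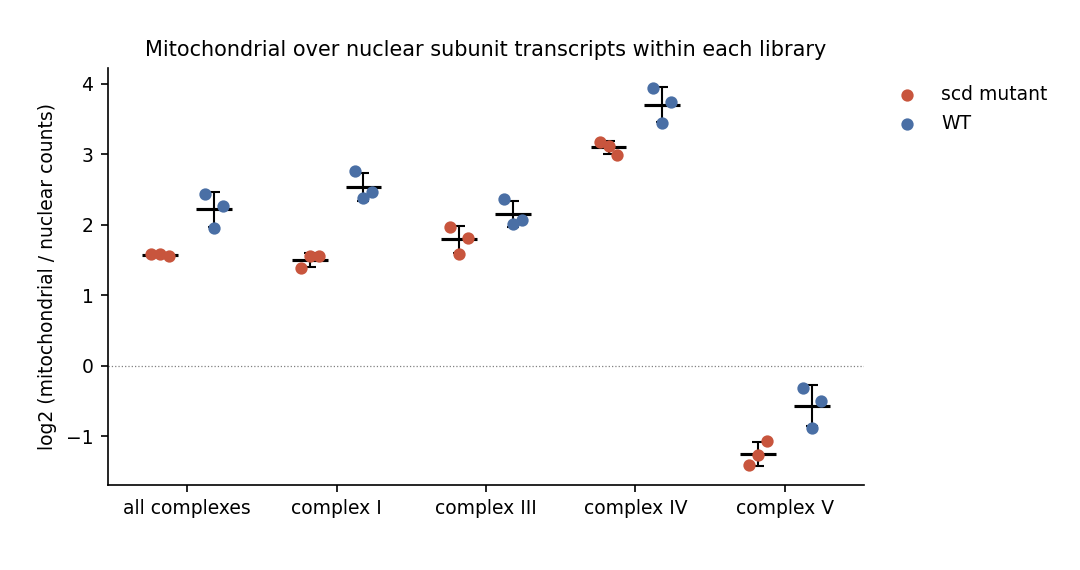
Log2 ratio of mitochondrially encoded to nuclear subunit counts within each library, for all complexes together and for each complex that has both kinds; points are libraries (3 scd mutant left, 3 WT right), bars are means and error bars SD. The mutant libraries lie below the WT libraries in each case, with the overall ratio at 1.56 to 1.59 in mutant and 1.95 to 2.43 in WT.

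The ratio was also read among libraries alike in ovary transcripts, where one of the groups has a single library and therefore no spread, so that these are values with no test. Among those that held them, it was 1.59 in mutant replicate 1, against a mean of 2.19 in WT replicates 1 and 2. Among those that held almost none, it averaged 1.57 in mutant replicates 2 and 3, against 2.27 in WT replicate 3. The differences were -0.60 and -0.70. Without mutant replicate 3, which held little vitellogenin and was high in erythrocyte markers, the difference was -0.63. Summed hepatocyte markers ran from 42590 CPM in mutant replicate 2 to 97620 CPM in mutant replicate 1, and their relation to the ratio was not tested. The part of blood cells in the ratio was not tested beyond leaving out mutant replicate 3. The CPM of the 13 genes depended more on scaling. As a percentage of named counts they made up 1.25%, 1.404% and 3.24% in mutant replicates 1 to 3, against 2.71%, 1.76% and 1.93% in WT replicates 1 to 3. With total counts as library sizes, their median log2 fold change was -0.23, where that of all genes was 0.98 and that of nuclear subunits 0.82.

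Other mitochondrial gene lists, whose fold changes are described further below, served as further denominators. The electron carrier list holds cyc1, the complex III subunit that was not taken by its symbol. Its counts were 1715, 1801 and 4242 in mutant replicates 1 to 3, against 1896, 2053 and 1467 in WT replicates 1 to 3. No ratio to that list was taken without cyc1. The log2 ratio of mitochondrially encoded counts to those of mitochondrial ribosomal protein genes was 4.46, 3.67 and 4.12 in mutant replicates 1 to 3, against 5.17, 5.05 and 5.36 in WT replicates 1 to 3. The difference was -1.11, without overlap. To electron carrier and coenzyme Q synthesis genes it was 5.005, 4.55 and 4.65 in mutant replicates 1 to 3, against 6.102, 5.59 and 5.83 in WT replicates 1 to 3, a difference of -1.11, also without overlap. To the citric acid cycle list it was 2.81, 3.08 and 2.78 in mutant replicates 1 to 3, against 3.57, 3.04 and 3.42 in WT replicates 1 to 3, and mutant replicate 2 lay inside the WT range. That list holds mdh1aa, a malate dehydrogenase of the cytosolic kind and its member with the most CPM. The counts of mdh1aa were 20174, 10353 and 45835 in mutant replicates 1 to 3, against 20903, 24213 and 19398 in WT replicates 1 to 3. No ratio to this list was taken without mdh1aa. Whether the groups overlap without it was not tested, so the overlap is not read as a result about the mitochondrially encoded genes. Nuclear subunits against the same list, mdh1aa included, were higher in each mutant library, at 1.23, 1.49 and 1.22 in mutant replicates 1 to 3, against 1.13, 1.09 and 1.15 in WT replicates 1 to 3. Whether this separation holds without mdh1aa was not tested either, so it is not read as a result about the nuclear subunits. Against the carrier genes, nuclear subunits were lower in each mutant library, with a difference of -0.46, and against the ribosomal protein genes the groups overlapped. The carrier list also holds cycsb, with counts of 1938, 4639 and 9246 in mutant replicates 1 to 3, against 1592, 1309 and 1923 in WT replicates 1 to 3. No ratio was taken without cycsb. The separations against the carrier list are therefore not read as results about the nuclear subunits or the mitochondrially encoded genes.

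Complex I had 34 of 37 nuclear subunits tested, with a median log2 fold change of 0.03 and a range from -0.24 to 0.62. The subunit that binds NADH and flavin, ndufv1, was at 82.6, 69.4 and 73.8 CPM in mutant replicates 1 to 3, against 75.1, 77.6 and 80.5 CPM in WT replicates 1 to 3 (log2 fold change -0.05 ± 0.25, adjusted p = 0.936). The iron-sulfur subunit ndufs7 varied least of the 83, with an SD of 0.07 in log2 CPM over the 6 libraries. The accessory subunit ndufv3 was higher in each mutant library, at 10.9, 9.46 and 10.6 CPM in mutant replicates 1 to 3, against 8.45, 7.02 and 7.59 CPM in WT replicates 1 to 3 (log2 fold change 0.43 ± 0.23, adjusted p = 0.364). The accessory subunit ndufb10 was lower in each, at 24.02, 23.5 and 22.1 CPM in mutant replicates 1 to 3, against 26.5, 27.9 and 28.1 CPM in WT replicates 1 to 3, a narrow separation that edgeR did not call (log2 fold change -0.24 ± 0.21, adjusted p = 0.558). The membrane-arm subunit ndufb8 was at 77.5, 50.04 and 47.3 CPM in mutant replicates 1 to 3, against 65.5, 61.4 and 62.2 CPM in WT replicates 1 to 3. The accessory subunit ndufb2, singled out after its values were seen, had the widest spread of complex I, with an SD of 1.15 in log2 CPM. It was at 36.8, 14.4 and 3.55 CPM in mutant replicates 1 to 3, against 17.7, 25.99 and 19.4 CPM in WT replicates 1 to 3, with mutant libraries on both sides of the WT range.

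Complex II, which also works in the citric acid cycle, had 4 of 5 subunits tested. Its flavoprotein sdha was at 110.2, 79.9 and 86.7 CPM in mutant replicates 1 to 3, against 103, 126 and 96.1 CPM in WT replicates 1 to 3 (log2 fold change -0.23 ± 0.29, adjusted p = 0.698). The iron-sulfur subunit sdhb was at 35.97, 26.8 and 25.5 CPM in mutant replicates 1 to 3, against 33.6, 30.4 and 31.9 CPM in WT replicates 1 to 3 (log2 fold change -0.12 ± 0.25). Mutant and WT overlapped for all 4. In complex III, 7 of 8 nuclear subunits were tested, and none separated the groups. Of all genes, 15.1% were separated and higher and 12.8% separated and lower. With so few genes, the overlap in complexes II and III is not read as a result about their subunits. The core protein uqcrc1 was at 98.4, 84.4 and 80.05 CPM in mutant replicates 1 to 3, against 89.5, 92.4 and 88.2 CPM in WT replicates 1 to 3, and its log2 fold change was -0.04 ± 0.26 (adjusted p = 0.947), beside -0.49 for mt-cyb of the same complex.

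Nuclear complex IV subunits had the widest range of log2 fold changes, from -1.26 for cox6b1 to 0.99 for cox4i1l over 19 of 22 tested. The upper end rested on mutant replicate 1. The level of cox4i1l was 14.1, 2.47 and 3.04 CPM in mutant replicates 1 to 3, against 3.65, 1.1 and 5.06 CPM in WT replicates 1 to 3, with overlap (SE of the log2 fold change 0.82, edgeR adjusted p = 0.539). The transcript of cox6b1, a subunit on the intermembrane side where the enzyme forms dimers, was at 36.95, 30.5 and 13.3 CPM in mutant replicates 1 to 3, against 66.2, 50.03 and 76.8 CPM in WT replicates 1 to 3. Each mutant library was below each WT library, and its log2 fold change of -1.26 ± 0.42 (adjusted p = 0.182) was lower than that of any mitochondrially encoded gene. The small subunit cox8b was higher in each mutant library, at 105, 110.0 and 118 CPM in mutant replicates 1 to 3, against 81.9, 80.5 and 104 CPM in WT replicates 1 to 3, with mutant replicate 1 close above WT replicate 3 (log2 fold change 0.33 ± 0.28, adjusted p = 0.547). The subunit cox4i1, thought to regulate the enzyme, was at 144, 83.1 and 58.8 CPM in mutant replicates 1 to 3, against 128, 144 and 140.3 CPM in WT replicates 1 to 3, so that mutant replicates 2 and 3 were below WT and mutant replicate 1 at its upper end (log2 fold change -0.53 ± 0.39, adjusted p = 0.488). A similar order held for ndufa4l, a relative of the complex IV subunit NDUFA4, at 276, 136 and 111 CPM in mutant replicates 1 to 3, against 274, 326 and 223 CPM in WT replicates 1 to 3 (log2 fold change -0.66 ± 0.44, adjusted p = 0.448).

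All 19 nuclear complex V genes were tested, with a median of -0.23, or -0.27 relative to the median of all genes. Leaving out mutant replicate 1 gave a relative median of -0.56, and leaving out mutant replicate 3 one of -0.07. The catalytic beta subunit atp5f1b was at 507, 364 and 324 CPM in mutant replicates 1 to 3, against 455, 496 and 434 CPM in WT replicates 1 to 3 (log2 fold change -0.21 ± 0.37, adjusted p = 0.786). The groups overlapped. The alpha subunit atp5fa1, chosen after its values were seen, was at 428, 265 and 272 CPM in mutant replicates 1 to 3, against 406, 464 and 453 CPM in WT replicates 1 to 3. The ring-forming subunit c is encoded by several genes, and the one labelled atp5mc1 was higher in each mutant library, at 106, 98.02 and 84.7 CPM in mutant replicates 1 to 3, against 66.9, 80.4 and 66.3 CPM in WT replicates 1 to 3 (log2 fold change 0.44 ± 0.27, adjusted p = 0.414).

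**Figure D4:**
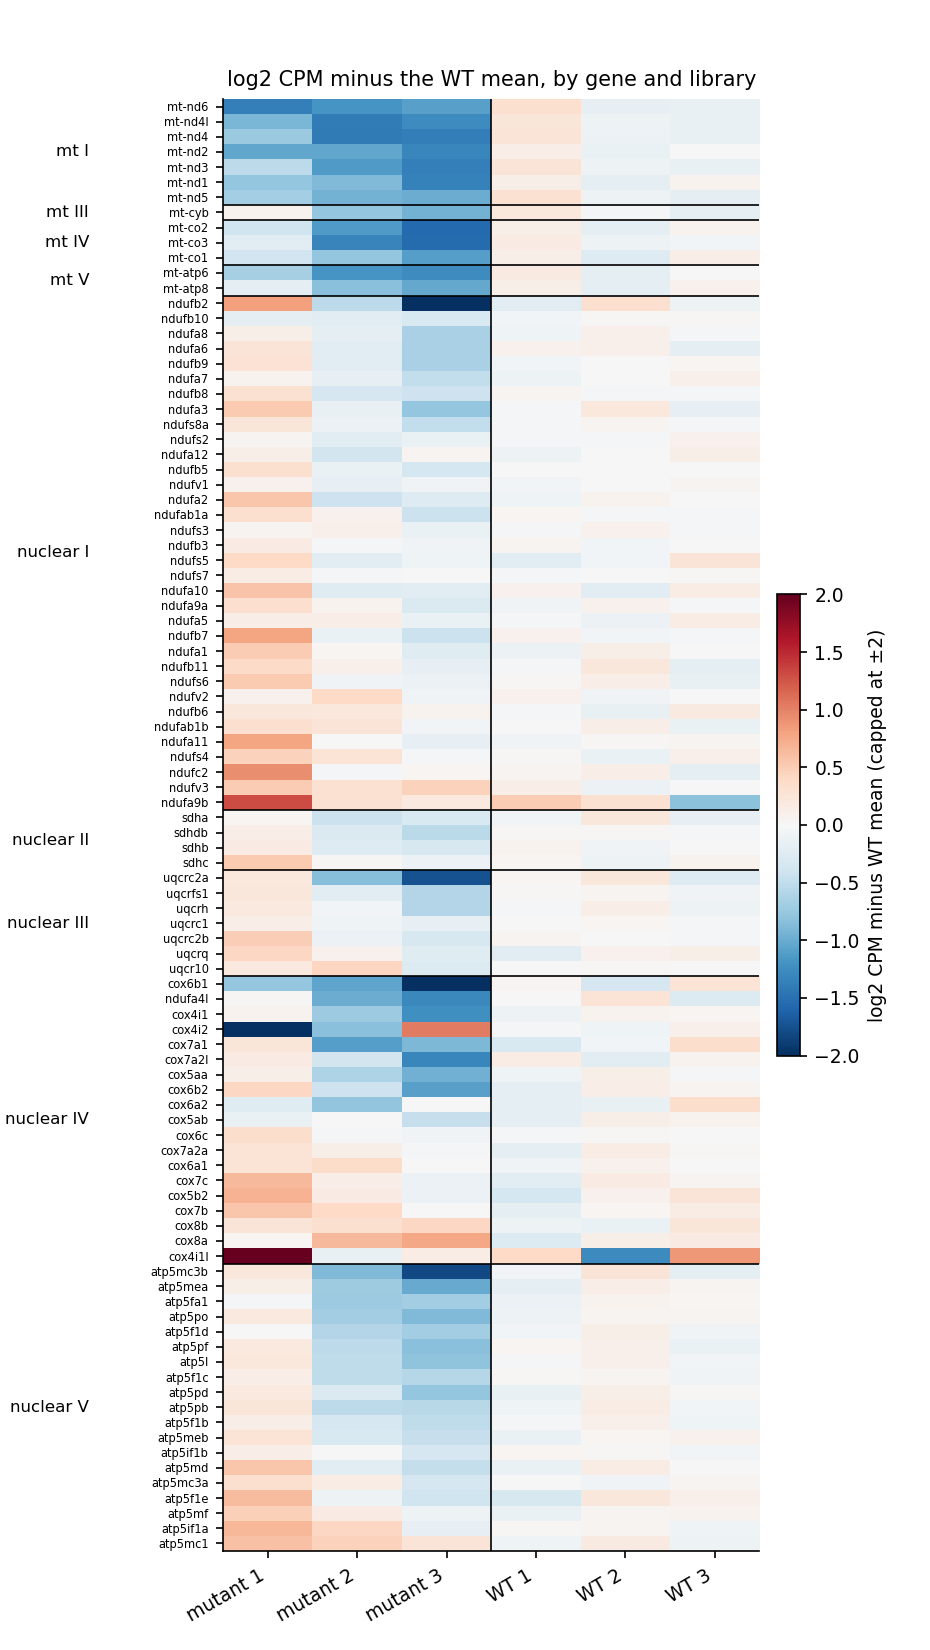
Log2 CPM of each subunit gene that passed the filter minus its WT mean, in each of the 6 libraries, with rows grouped by genome and complex and ordered by the mutant mean; colours are capped at 2 in either direction. The mitochondrially encoded rows at the top are below the WT mean in the mutant libraries, except mt-cyb in mutant replicate 1, with median deviations of -0.66, -1.13 and -1.26 in mutant replicates 1 to 3, while the nuclear medians are 0.25, -0.15 and -0.31.

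The ratio between duplicated copies of a subunit separated the groups for some pairs and not for others. Of uqcrc2a and uqcrc2b, both copies of a complex III core protein gene, the first stood at 141, 66.99 and 36.04 CPM in mutant replicates 1 to 3, against 124, 142 and 101 CPM in WT replicates 1 to 3 and the second at 93.7, 61.4 and 53.4 CPM in mutant replicates 1 to 3, against 68.8, 66.2 and 64.98 CPM in WT replicates 1 to 3. Their log2 ratio was 0.59, 0.13 and -0.57 in mutant replicates 1 to 3, against 0.85, 1.101 and 0.64 in WT replicates 1 to 3, without overlap. For subunit c of complex V, atp5mc3b stood at 663, 308 and 163 CPM in mutant replicates 1 to 3, against 549, 681 and 495 CPM in WT replicates 1 to 3 and atp5mc3a at 60.9, 54.2 and 38.4 CPM in mutant replicates 1 to 3, against 48.7, 46.5 and 50.8 CPM in WT replicates 1 to 3. The log2 ratio of atp5mc3a to atp5mc3b was -3.45, -2.51 and -2.09 in mutant replicates 1 to 3, against -3.49, -3.87 and -3.29 in WT replicates 1 to 3, with mutant replicate 1 inside the WT range. The inhibitory factor genes atp5if1a and atp5if1b had a log2 ratio of -0.96, -1.07 and -1.32 in mutant replicates 1 to 3, against -1.51, -1.45 and -1.51 in WT replicates 1 to 3, higher in each mutant library. The complex I copies ndufa9a and ndufa9b had log2 fold changes of 0.06 and 0.62, the second from 4 to 37 counts per library. Reads shared between near-identical copies may be split differently by other counting settings.

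Of the 8 copy pairs with values, 3 separated the groups and 5 overlapped. Of all single genes, 15.1% were separated and higher and 12.8% separated and lower. No such share was computed over ratios of other gene pairs. A further 6 pairs were chosen after their values were seen, of which 2 separated the groups and 4 overlapped, cox4i2 to cox4i1, cox4i1l to cox4i1, cox6a1 to cox6a2 and cox7a1 to cox7a2a. The log2 ratio of atp5mc1 to atp5mc3b, 2 genes for subunit c, was -2.64, -1.65 and -0.95 in mutant replicates 1 to 3, against -3.04, -3.08 and -2.901 in WT replicates 1 to 3. The groups did not overlap. That of cox6b1 to cox6b2 was -1.88, -1.34 and -1.85 in mutant replicates 1 to 3, against -0.44, -1.17 and -0.48 in WT replicates 1 to 3, lower in each mutant library. Of the 8 copy pairs, atp5mea to atp5meb, a small complex V subunit, had a log2 ratio of -1.32, -1.58 and -1.72 in mutant replicates 1 to 3, against -1.22, -1.08 and -1.196 in WT replicates 1 to 3, also lower in each mutant library. The ratio of cox4i2 to cox4i1, forms of which mammals use the first under low oxygen, was -6.74, -4.68 and -2.28 in mutant replicates 1 to 3, against -4.47, -4.71 and -4.48 in WT replicates 1 to 3. Its WT libraries lay together, and mutant replicates 1 and 3 lay on opposite sides of them. The level of cox4i2 in CPM was 1.35, 3.25 and 12.1 CPM in mutant replicates 1 to 3, against 5.76, 5.501 and 6.29 CPM in WT replicates 1 to 3.

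**Figure D5:**
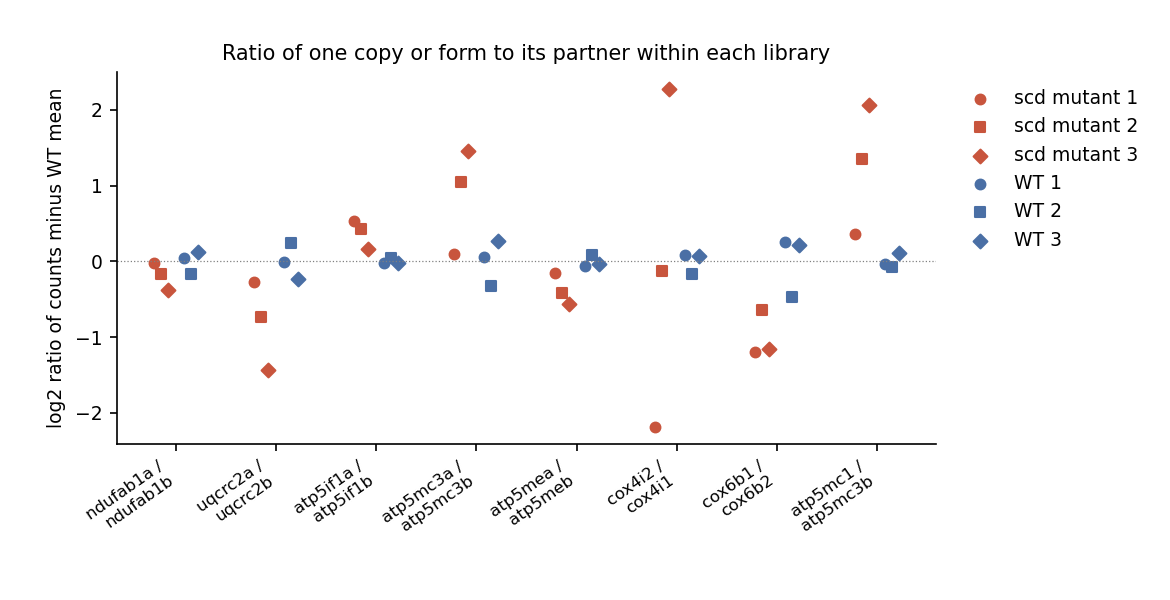
Log2 ratio of counts of one gene copy or form to its partner, minus the WT mean of that ratio, with 1 point per library (3 scd mutant left, 3 WT right; marker shape gives the replicate number). The ratios uqcrc2a to uqcrc2b, atp5mea to atp5meb and cox6b1 to cox6b2 are lower in each mutant library, and atp5if1a to atp5if1b and atp5mc1 to atp5mc3b higher.

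The 8 genes that did not pass the filter were ndufs1, ndufb4, ndufs8b, sdhda, uqcrb, ndufa4, ndufa4l2a and ndufa4l2b. Their counts lay between 0 and 22 per library. Among them ndufs1, an iron-sulfur subunit at the core of complex I, had 0, 1 and 5 counts in mutant replicates 1 to 3 and 0, 0 and 0 in WT replicates 1 to 3. The complex III subunit gene uqcrb had 1, 12 and 13 counts in mutant replicates 1 to 3 and 8, 4 and 3 in WT replicates 1 to 3. How reads of these genes were handled in counting was not given in the sources used here, and the low counts are not read as absent expression.

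The 11 assembly factors, which build complexes I and II but are not part of them, had a median log2 fold change of 0.23, with 8 positive and 3 negative values. Their groups overlapped in all cases, where 15.1% of all genes were separated and higher and 12.8% separated and lower. With so few genes, this overlap is not read as a result about the assembly factors. The complex I factor ndufaf3 was at 27.9, 15.6 and 13.2 CPM in mutant replicates 1 to 3, against 19.97, 25.8 and 17.8 CPM in WT replicates 1 to 3 (log2 fold change -0.17 ± 0.35, adjusted p = 0.826).

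Other mitochondrial genes were followed as lists. Both edgeR and limma-voom called 0 of their members at an adjusted p under 0.05, where they called 31 and 28 of all genes. DESeq2 called 5 as higher and 0 as lower, where it called 4.19% of all genes as higher and 4.47% as lower. The 5 were 1 of 74 ribosomal protein genes, 1 of 18 assembly factors of complexes I, III and V and 1 of 18 carrier and coenzyme Q genes. The other 2 were among 26 genes that act on mitochondrial DNA and its RNA. The complex IV assembly, biogenesis and citric acid cycle lists, of 21, 16 and 20 genes tested, held 0. Of 74 mitochondrial ribosomal protein genes, which serve translation of the 13 messages, 61 had positive values, with a median of 0.31. Mutant and WT values were fully separated for 21 that were higher, or 28.4%, beside 15.1% of all genes, and for 2 that were lower, or 2.7%, beside 12.8%. At an unadjusted p under 0.05 there were 11 higher, or 14.9%, beside 10.8% of all genes, and 0 lower. The member with the most CPM, mrpl2, did not separate the groups (log2 fold change -0.21 ± 0.37). The gene mrpl48 was the one that DESeq2 called, and stood at 6.92, 12.8 and 6.35 CPM in mutant replicates 1 to 3, against 2.64, 3.46 and 1.63 CPM in WT replicates 1 to 3 (log2 fold change 1.75 ± 0.42, edgeR adjusted p = 0.11, DESeq2 adjusted p = 0.00969).

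Assembly factors of complexes I, III and V outside the rule had a median of 0.75 over 18 genes. Without overlap, 6 were higher, or 33.3%, beside 15.1% of all genes, and 0 were lower, beside 12.8%. At an unadjusted p under 0.05, 5 were higher, or 27.8%, beside 10.8% of all genes, namely ecsit, uqcc2, lyrm7, atp23 and tmem242. The first helps to assemble complex I and the next 2 complex III. The level of lyrm7, which in mammals guards the iron-sulfur protein of complex III before its insertion, was 4.29, 9.59 and 4.02 CPM in mutant replicates 1 to 3, against 2.16, 1.42 and 1.69 CPM in WT replicates 1 to 3 (log2 fold change 1.76 ± 0.44, edgeR adjusted p = 0.117, DESeq2 adjusted p = 0.0148). Complex IV assembly factors had a median of 0.17 over 21 genes. The 3 that were higher without overlap made up 14.3%, near the 15.1% of all genes, and the 1 that was lower 4.76%, beside 12.8%. At an unadjusted p under 0.05, tmem177 was higher, or 4.76% of the list, beside 10.8% of all genes. The atpaf1 and cox17 genes, an assembly factor of complex V and a copper chaperone of complex IV, were the members of these lists with the most CPM and had log2 fold changes of 0.11 and 0.01.

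Electron carriers and coenzyme Q synthesis had a median of 0.21 over 18 genes, with 6 higher without overlap, or 33.3%, beside 15.1% of all genes, and 0 lower, beside 12.8%. At an unadjusted p under 0.05, 5 were higher, or 27.8%, beside 10.8% of all genes. Cytochrome c, cycsb, was at 119, 191 and 132 CPM in mutant replicates 1 to 3, against 76.4, 68.6 and 108 CPM in WT replicates 1 to 3, higher in each mutant library (log2 fold change 0.803 ± 0.34, edgeR adjusted p = 0.263). The coenzyme Q synthesis gene coq2, which joins the ring to its tail, was at 13.4, 8.64 and 5.01 CPM in mutant replicates 1 to 3, against 1.78, 4.24 and 3.15 CPM in WT replicates 1 to 3 (log2 fold change 1.56 ± 0.47, edgeR adjusted p = 0.16, DESeq2 adjusted p = 0.0496). Citric acid cycle genes had a median of -0.18 over 20 genes, with 15 negative values and 0 at an unadjusted p under 0.05. Without overlap, pdha1a was higher and ogdha lower, each 5.0% of the list, beside 15.1% and 12.8% of all genes. The member with the most CPM, mdh1aa, which encodes a malate dehydrogenase of the cytosolic kind, had a log2 fold change of -0.54 ± 0.51.

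Genes that act on mitochondrial DNA and its RNA had a median of 0.05 over 26. The 3 that were higher without overlap made up 11.5%, beside 15.1% of all genes, and the 2 that were lower 7.69%, beside 12.8%, so neither share was above that of all genes. Among them lrpprc, whose product stabilises mitochondrial messages in mammals, was at 29.9, 34.4 and 24.9 CPM in mutant replicates 1 to 3, against 44.8, 35.3 and 38.3 CPM in WT replicates 1 to 3. Mutant replicate 2 came just below WT replicate 2, so the groups were apart by little (log2 fold change -0.41 ± 0.25, edgeR adjusted p = 0.412). The other lower one, trmt10c, encodes a subunit of the enzyme that in mammals cuts the mitochondrial precursor at transfer RNAs. It was at 9.13, 7.201 and 2.44 CPM in mutant replicates 1 to 3, against 16.3, 16.4 and 10.5 CPM in WT replicates 1 to 3 (log2 fold change -1.21 ± 0.49, edgeR adjusted p = 0.242, DESeq2 adjusted p = 0.15). Higher in each mutant library were tefm, an elongation factor of mitochondrial transcription, fastkd3 and mgme1, a nuclease of mitochondrial DNA. Their log2 fold changes were 1.36, 1.45 and 2.09, at edgeR adjusted p of 0.155, 0.137 and 0.123. DESeq2 called the last 2 of them, at adjusted p of 0.0318 and 0.0105. Both had few counts. Those of fastkd3 were 44, 98 and 276 in mutant replicates 1 to 3, against 37, 17 and 22 in WT replicates 1 to 3. Those of mgme1 were 45, 45 and 188 in mutant replicates 1 to 3, against 10, 18 and 5 in WT replicates 1 to 3. The partner of lrpprc, slirp, had a log2 fold change of -0.15, the mitochondrial RNA polymerase polrmt of 0.13 and the transcription factor tfam of 0.36, all with overlapping groups.

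Regulators of mitochondrial biogenesis had a median of 0.18 over 16. The 2 that were higher without overlap, nrf1 and gabpb2b, made up 12.5%, beside 15.1% of all genes, and the 1 that was lower, ppargc1a, 6.25%, beside 12.8%. The same 2 were higher at an unadjusted p under 0.05, a share near the 10.8% of all genes. Few reads fell on gabpb2b, with 10, 19 and 132 counts in mutant replicates 1 to 3, against 11, 6 and 3 in WT replicates 1 to 3. In CPM, mutant replicate 1 stood just above WT replicate 1, at 0.613 against 0.528. The transcription factor nrf1, which binds promoters of nuclear respiratory genes in mammals, was at 8.33, 8.11 and 13.7 CPM in mutant replicates 1 to 3, against 6.24, 5.61 and 6.07 CPM in WT replicates 1 to 3 (log2 fold change 0.75 ± 0.297, edgeR adjusted p = 0.234). The coactivator ppargc1a was at 10.5, 3.42 and 0.528 CPM in mutant replicates 1 to 3, against 20.02, 18.5 and 12.2 CPM in WT replicates 1 to 3, lower in each mutant library (log2 fold change -1.83 ± 0.93, edgeR adjusted p = 0.335). The related pprc1 was at 40.7, 36.5 and 3.94 CPM in mutant replicates 1 to 3, against 55.99, 89.3 and 35.5 CPM in WT replicates 1 to 3, with overlap (log2 fold change -1.16 ± 0.803). Among the genes named from these mitochondrial lists, from the ribosomal proteins to the biogenesis regulators, those other than mrpl2, atpaf1, cox17, cycsb, mdh1aa, lrpprc and pprc1 were named after their values were seen.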

How the data were processed

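RNA sequencing of liver from 3 scd mutant and 3 WT zebrafish was analysed. The authors deposited raw counts of reads per gene in a single table, made, per the submitters' processing notes, with Trimmomatic 0.36, STAR 2.7 and featureCounts 1.5.2 on build GRCz11. Strand and multi-mapping settings were not given in the sources used here. The row without a gene name, 0.568% to 1.02% of a library's counts, was left out. Genes kept by filterByExpr (12889 of 30954) were scaled by TMM (trimmed mean of M values) to CPM, counts per 1e+06, and tested with edgeR 4.0.16 (R 4.3.3), by the quasi-likelihood test with robust dispersion and Benjamini-Hochberg adjustment over all genes. Standard errors (SE) were derived from each log2 fold change and its F statistic. Ratios and shares use deposited counts. DESeq2 1.42.0, limma-voom (limma 3.58.1), other scalings, filters, a replicate block and each library left out were alternatives. The fit was also run on simulated data. These varied far less between libraries than the real data and held larger changes than those of the mitochondrially encoded genes. That run therefore does not show whether changes of such size can be called here. DESeq2 tests were over 12538 genes with an adjusted p.

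Members and lists were chosen with earlier results of these data known. Named were all 13 mitochondrially encoded genes. From each complex came the 2 nuclear subunits with the most CPM and up to 2 with the largest change among those without overlap and with a mean log2 CPM above 1. The assembly factor with the most CPM, the 4 copy pairs that differed most, and from each list its called members or else that with the most CPM were added. Genes outside this rule are illustrations. The pair sdha and sdhb, different subunits, was not taken as copies.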

Additional observations from a re-analysis of the deposited data

How the results depend on the processing

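Fold changes here are relative to the median of all genes in the same fit, which total counts shifted to 0.98 (0.04 under TMM). Calls over all genes numbered 31, and 467 with total counts, 211 without the filter, 1085 by DESeq2, 54 with the ovary covariate, which was added after seeing the data, and 2 to 77 when 1 library was left out. Without mutant replicate 1 there were 77, without mutant replicate 2 there were 2, without mutant replicate 3 there were 21, and without WT replicates 1, 2 and 3 there were 3, 5 and 5. The labels do not say that replicate numbers pair the samples. Correlations of same-numbered deviations were 0.298, -0.211 and 0.320, and those of differently numbered ones ran from -0.493 to 0.412. With so few libraries these values cannot settle whether samples were paired. The replicate block left 2 calls. DESeq2 called 7 oxidative phosphorylation genes, and every other fit run called 0. The median of nuclear complex I subunits was -0.01, with -0.18 to 0.19 when 1 library was left out, that of complex II -0.20, with -0.38 to -0.03, that of complex III -0.08, with -0.22 to 0.09, that of complex IV -0.09, with -0.28 to 0.06, and that of complex V -0.27, with -0.56 to -0.07, and -0.10 with the ovary covariate and -0.43 with total counts. The log2 difference of the mitochondrial to nuclear ratio was -0.64, and -0.88 when each gene weighed the same. It kept its sign, with each library left out, between -0.78 and -0.54. Relative to the median of all genes, the fold changes of the 13 mitochondrially encoded genes kept their sign under all settings run. Without subtracting that median, total counts gave 0.034 for mt-co1, 0.21 for mt-cyb and 0.103 for mt-atp8, with a median of -0.23 over the 13. For genes near 0 the sign of the relative fold change turned. With total counts it was -0.129 for atp5mc3a, -0.029 for atpaf1, -0.12 for ndufa9a and -0.16 for uqcrc2b. Without the filter it was -0.039 for atp5mc3a, -0.053 for ndufa9a and -0.053 for uqcrc2b. With the ovary covariate it was 0.012 for atp5if1b, 0.07 for cox17, 0.066 for mrpl2, 0.03 for ndufaf3 and 0.014 for uqcrc1. With 1 library left out the values ran from -0.211 to 0.072 for atp5if1b, -0.115 to 0.252 for atp5mc3a, -0.133 to 0.264 for atpaf1, -0.170 to 0.22 for cox17, -0.514 to 0.054 for mrpl2, -0.146 to 0.217 for ndufa9a, -0.605 to 0.046 for ndufaf3, -0.419 to 0.025 for ndufb8, -0.177 to 0.033 for uqcrc1 and -0.261 to 0.227 for uqcrc2b. The planned count of promoter motifs was not run, since no promoter sequences were used here. The causes were not tested. Counting error was computed for ratios and shares, not for single genes. It may be a large part of the spread for genes with few counts, such as ndufa9b. The same holds for genes with little spread, such as ndufs7 with its SD of 0.07 in log2 CPM.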
